A study of Mus musculus with 6 samples.

Results

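The unfolded protein response and the integrated stress response of mouse stromal cells were examined through 42 genes of both responses, listed by name and found by their GENCODE M21 symbols. They are 42 of the 35968 genes with a transcript in the deposited files. For each gene the estimated counts and the TPM values (a level per transcript length on a scale with one fixed total for every library) of all its transcripts were summed in each library. RNA was sequenced from MS-5 cells, a mouse bone marrow stromal line, kept alone (the MS-5 only libraries MO1, MO2 and MO3), and from MS-5 cells taken after 24 hr with SKM-1 cells, a human acute myeloid leukaemia (AML) line (the co-culture libraries MC1, MC2 and MC3). No gene was altered in either group, both were kept in the same serum-supplemented medium, and SKM-1 cells were plated at 4 AML cells per stromal cell over confluent MS-5 cells. The libraries differ between groups in the presence of the AML cells, and the cells were separated and washed before RNA was taken. One stromal line and one AML line were used, and the labels do not say whether the 3 libraries of a group came from separate cultures, so that p-values measure the spread between these libraries.

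When unfolded proteins build up in the endoplasmic reticulum (ER), the sensors PERK (Eif2ak3), IRE1 (Ern1) and ATF6 (Atf6) are released from the chaperone BiP (Hspa5). IRE1 cuts a short intron out of the Xbp1 mRNA, and the XBP1 and ATF6 proteins then raise chaperones and the machinery of ER-associated degradation (ERAD), which returns misfolded proteins to the cytosol. PERK, and GCN2 (Eif2ak4) when amino acids run short, phosphorylate the translation factor eIF2, which lowers translation as a whole but favours that of the ATF4 protein, so that genes of amino acid supply, redox balance and growth arrest are transcribed. Much of the signal in both responses is carried by translation, phosphorylation and splicing, which gene-level mRNA values do not measure.

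The libraries held 23978881 to 27182453 estimated counts without AML cells and 26258451 to 35694987 with them. MO2 and MC3 stood apart from the other 4 libraries. Mitochondrial transcripts took 6.07% and 5.92% of their counts against 10.6% to 13.2% in the others, and retained-intron models took 5.25% and 5.38% of their TPM against 2.47% to 2.74%. Of 14 leukocyte markers 12 were tested, and with no covariate 8 were called higher in co-culture and none lower, beside 3.71% and 0.666% of all genes. Of the tested markers, 8 were under 1 CPM (counts scaled to the library total and normalised by TMM) in every MS-5 only library. These passed the filter on low counts largely through the co-culture libraries, which already favours a difference. The summed level of the 14 markers was 39.7 to 41.9 CPM in MS-5 only but 96.7, 396 and 95.5 CPM in MC1, MC2 and MC3, with Cd33 and Fcer1g under 1 CPM in every library. Of 12 stromal markers 10 were tested, and with no covariate none was called (1 at an unadjusted p under 0.05). The sum of the 12 was 11748 to 13328 CPM in MS-5 only and 13658 to 15890 CPM in co-culture. Lum and Dcn, which mark many fibroblasts, were at or near 0 in all 6 libraries. In these bulk samples a smaller number of cells of one type and less RNA per cell cannot be told apart.

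In the fit of co-culture against MS-5 only with no covariate, 3 of the 42 genes rose and the others did not pass the test. Of the 41 genes that passed the filter on low counts, Ddit4, Ero1l and Vldlr were called higher at an adjusted p under 0.1 in edgeR's quasi-likelihood test, and 0 were called lower. Ddit4 and Ero1l are also known as genes that hypoxia induces, and Vldlr was close to absent from MS-5 cells alone. Across all 13221 genes tested, 3.71% were called higher and 0.666% lower, beside 7.32% and 0 of these genes. Vldlr, with 4 counts in all MS-5 only libraries together, passed the filter on low counts only through the co-culture libraries, so its place among the tested genes already required a difference, and the other 2 calls do not rest on this. At an unadjusted p under 0.05, 4 genes were higher and 1 lower, where 8.62% and 5.63% of all genes were. The log2 fold changes were positive in 20 genes and negative in 21, with a median of -0.01 beside -0.02 over all genes tested, and 35 of the 41 lay within 0.5 of 0. Groups that did not overlap were seen in 4 genes with all co-culture libraries above and 5 with all below, which is 9.76% and 12.2% of the genes beside 11.6% and 9.6% of all genes tested. With 3 libraries in each group no comparison can give an exact two-sided permutation p below 0.1 for a single gene, and edgeR's test borrows information across genes.

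The count of 3 rests on the settings. With a covariate for MO2 and MC3, 7 genes were called higher and 14 lower (13.9% and 16.4% of all genes), as described further on. DESeq2's Wald test also called 3 higher and 0 lower (6.88% and 2.71% of all genes), but 1 remained without MC2 (2.02% of all genes, Ddit4) and 0 when only protein-coding transcript models were summed (0.025% of all genes), although the log2 fold changes of Ddit4, Ero1l and Vldlr were then 1.09, 0.85 and 5.75.

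**Figure D1:**
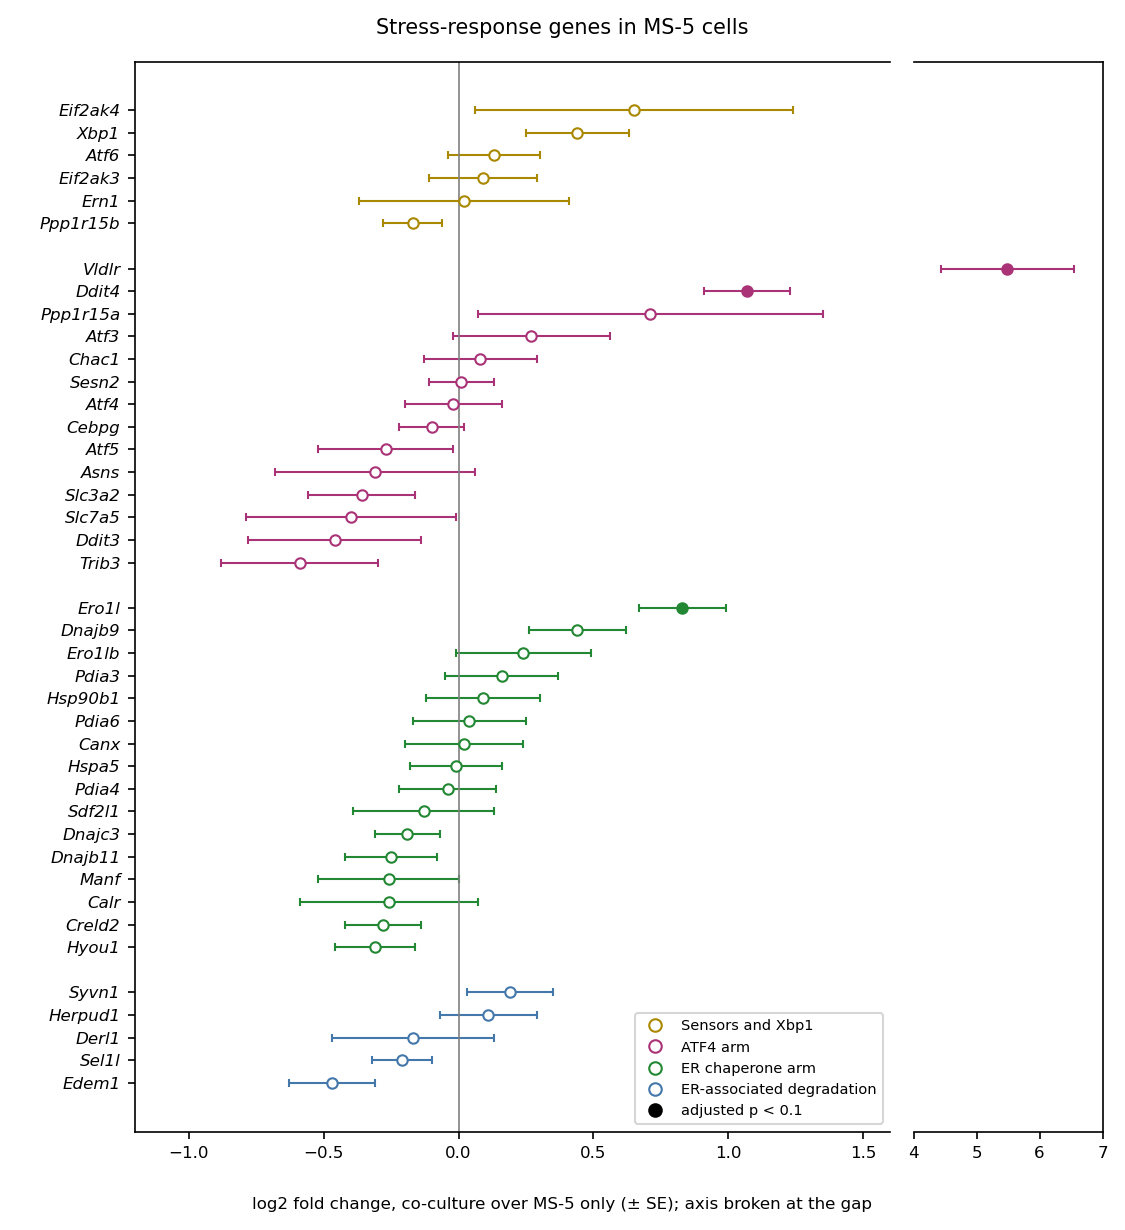
Log2 fold change of each of the 41 tested genes (x axis, co-culture over MS-5 only, with the SE as a bar), ordered by arm on the y axis. Filled points passed an adjusted p of 0.1. Ddit4 (1.07), Ero1l (0.83) and Vldlr (5.49, right of the axis break) are filled, and all other points lie between -0.59 and 0.71.

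The first group holds the 4 sensors, Xbp1 and Ppp1r15b. The sensors' levels were low beside those of the main chaperones, with mean TPM in MS-5 only of 6.82 for Eif2ak3, 11.2 for Eif2ak4, 12.7 for Atf6 and 25.4 for Ern1. None of the 6 genes in this group was called by edgeR without the covariate or by DESeq2. With the covariate 2 were called higher and 1 lower (33.3% and 16.7%, beside 13.9% and 16.4% of all genes). At an unadjusted p under 0.05, 0 of the 6 passed in edgeR without it, where 8.62% of all genes were higher and 5.63% lower. In DESeq2 1 passed, where 1287 of 13221 genes were higher and 839 lower. Eif2ak3, the gene of PERK, was at 19.2, 26.7 and 18.9 CPM in MO1, MO2 and MO3 and at 21.4, 20.1 and 27.3 CPM in MC1, MC2 and MC3. The groups overlapped, and the highest value of each group was in MO2 and in MC3 (log2 fold change 0.09, standard error (SE) 0.20, adjusted p = 0.944).

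The levels of Ern1, the gene of IRE1, were 81.0, 176 and 83.7 CPM in the MO libraries and 94.6, 86.0 and 165 CPM in the MC libraries. Again MO2 and MC3 stood above the other 4 libraries, which lay between 81.0 and 94.6 CPM, and the difference between groups was 0.02 on the log2 scale (SE 0.39, adjusted p = 0.993). Atf6 was measured at 57.7, 78.7 and 74.9 CPM in the MO libraries and 67, 77.8 and 86.2 CPM in the MC libraries. Its groups overlapped as well (log2 fold change 0.13, SE 0.17, adjusted p = 0.852).

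Eif2ak4, the gene of the amino acid sensor GCN2, averaged 36.8 ± 25.7 CPM in the MO libraries and 57.9 ± 32.5 CPM in the MC libraries (SD, n = 3 each), with MO2 at 65.9 CPM and MC3 at 94.3 CPM. The SD within each group was larger than the difference between them (log2 fold change 0.65, SE 0.59, adjusted p = 0.735). Ppp1r15b encodes the constitutive partner of the phosphatase that removes the phosphate from eIF2. It was at 100.4, 94.4 and 96.3 CPM in the MO libraries and at 90.2, 85.8 and 81.9 CPM in the MC libraries. All 3 co-culture libraries lay below all 3 of MS-5 only, by a log2 fold change of -0.17 (SE 0.11) that did not pass the test (adjusted p = 0.581).

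Xbp1, the target of IRE1, lies at chr11:5520659-5525893 (GRCm38, + strand). Its levels were 56.6, 47.6 and 68.0 CPM in MO1, MO2 and MO3 and 86.2, 85.1 and 62.8 CPM in MC1, MC2 and MC3. MC1 and MC2 were above every MS-5 only library, whereas MC3 was below MO3, and the log2 fold change of 0.44 (SE 0.19, unadjusted p = 0.0589) had an adjusted p of 0.377. MC3 was higher than MO2, the other library that stood apart, by 0.40 on the log2 scale, and the mean of MC1 and MC2 was higher than that of MO1 and MO3 by 0.46.

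The activity of IRE1 is read most directly from the loss of a 26-base intron of the Xbp1 mRNA, which shifts the reading frame. It lies in exon 4 of 5 of the longest Xbp1 transcript, at chr11:5524282-5524307 of GRCm38 on the + strand, and is shown with the coding bases on either side, the intron in capitals.
Xbp1 (chr11:5524262-5524327): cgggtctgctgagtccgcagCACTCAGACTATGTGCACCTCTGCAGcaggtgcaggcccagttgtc
Of the 4 Xbp1 transcripts in the deposited files, 3 hold these bases and 0 hold the junction that remains after they are removed. The share of spliced Xbp1 therefore cannot be read from these files, and the values above are of all Xbp1 mRNA together.

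The ATF4 arm holds 14 genes, of which 2 were called higher, 0 lower and 12 were not called in the fit without the covariate. The share called higher was 14.3%, beside 3.71% of all genes (0.666% lower). Vldlr, 1 of the 2, passed the filter on low counts only through the co-culture libraries. The median log2 fold change of the 14 was -0.06, with 6 positive and 8 negative. Atf4 itself, at chr15:80255184-80257541, was among the more abundant of these genes, with a mean of 209.6 TPM in MS-5 only and 211 TPM in co-culture. In counts it stood at 284, 265 and 221 CPM in the MO libraries and at 213, 264 and 283 CPM in the MC libraries. The lowest and the highest values of both groups nearly coincided, and the log2 fold change was -0.02 (SE 0.18, adjusted p = 0.991). The retained-intron model of Atf4 took 0.712%, 5.74% and 0.963% of the gene's TPM in MO1, MO2 and MO3 and 1.36%, 2.05% and 12.8% in MC1, MC2 and MC3, so that MO2 and MC3 were again the highest of their groups.

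The other transcription factors of the arm were also not called. Atf3, an early stress-induced factor, was low in both groups (6.13 ± 1.66 and 7.39 ± 1.82 CPM, SD, n = 3), and Atf5, itself regulated through translation like Atf4, had means of 287 and 238 CPM, with adjusted p-values of 0.799 and 0.735. Cebpg, a dimerisation partner of ATF4, changed by -0.10 on the log2 scale (SE 0.12, adjusted p = 0.832).

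Ddit3 encodes CHOP, which drives apoptosis under prolonged ER stress. It was measured at 55.2, 81.6 and 44.1 CPM in the MO libraries and 39.0, 31.4 and 61.2 CPM in the MC libraries. MC1 and MC2 lay below every MS-5 only library, but MC3 lay above MO1 and MO3, and the log2 fold change was -0.46 (SE 0.32, adjusted p = 0.622). Trib3, a pseudokinase induced by ATF4 and CHOP, was at 126, 74.9 and 105 CPM in the MO libraries and at 86.7, 71.0 and 46.3 CPM in the MC libraries. This was the most negative log2 fold change among the 41 genes, -0.59 (SE 0.29), yet MC1 was above MO2 and the adjusted p was 0.431. With one library left out it ran from -0.81 to -0.37, and without MO1 (-0.39) Ddit3 was lower (-0.49). Chac1, a glutathione-degrading enzyme and a sensitive ATF4 target, was at 17.6, 11.7 and 17.5 CPM in the MO libraries and 17.8, 17.4 and 14.1 CPM in the MC libraries. No direction was visible (log2 fold change 0.08, SE 0.21, adjusted p = 0.954).

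Asparagine synthetase, Asns, was at 322, 150.2 and 272 CPM in the MO libraries and 233, 246 and 121 CPM in the MC libraries. The libraries MO2 and MC3 were the low ones here, and the difference between groups (log2 fold change -0.31, SE 0.37, adjusted p = 0.830) was smaller than that between these libraries and the rest of their groups, which was -0.98 on the log2 scale in both groups. Slc7a5 and Slc3a2, the light and heavy chains of the amino acid transporter LAT1, had log2 fold changes of -0.40 (SE 0.39, adjusted p = 0.773) and -0.36 (SE 0.20, adjusted p = 0.487). The leucine sensor Sesn2 was level in all libraries, at 54.0 ± 2.99 and 54.5 ± 2.89 CPM (SD, n = 3). Ppp1r15a (GADD34), the inducible partner of the eIF2 phosphatase, was at 73.1 CPM in MO2 and 149 CPM in MC3 against 29.1 to 38.5 CPM in the other 4 libraries, and was not called (log2 fold change 0.71, SE 0.64, adjusted p = 0.735).

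Ddit4 was the member of the arm with the clearest difference. It encodes REDD1, an inhibitor of the growth kinase mTORC1, and lies at chr10:59949669-59951834 on the - strand. It was measured at 108, 92.5 and 93.0 CPM in MO1, MO2 and MO3 and at 234, 177 and 205 CPM in MC1, MC2 and MC3. Every co-culture library was well above every MS-5 only library, with a 2.10-fold higher level (log2 fold change 1.07, SE 0.16, adjusted p = 0.0734). MC3 was 1.15 higher than MO2 on the log2 scale, and MC1 and MC2 were 1.03 higher than MO1 and MO3 on average, so the difference was of similar size in both kinds of library. MC2, the library with the most leukocyte marker RNA, had the lowest Ddit4 level of the co-culture group, and without it the log2 fold change was 1.16 (adjusted p = 0.0621). When MO1, MO3 or MC1 was left out instead the adjusted p was 0.3, 0.290 and 0.103, and it was 0.149 without MO2.

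Vldlr, the very low density lipoprotein receptor, which ATF4 and hypoxia are both known to induce, lies at chr19:27216484-27254231. It was nearly silent in MS-5 only, with 0.0399, 0.0955 and 0 CPM, and was at 0.885, 4.94 and 1.43 CPM in co-culture. All co-culture libraries were higher, but the group differed within itself, with MC2 far above MC1 and MC3. In counts, 4 reads in the 3 MS-5 only libraries stood against 197 in co-culture, a ratio of 42.5 at equal depth with an exact 95% interval of 16.4 to 158 that covers counting error only. The fitted log2 fold change was 5.49 (SE 1.06, adjusted p = 0.0747), and without MC2 it was 4.44 with an adjusted p of 0.113. With limma on log2(TPM + 0.5), on which low genes move less, it was 1.31.

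The shape of Vldlr over the co-culture libraries was like that of the leukocyte markers. Its level in MC2 was 4.28 times the mean of MC1 and MC3, and the 8 tested leukocyte markers that were under 1 CPM in every MS-5 only library had ratios from 3.89 to 7.17. Derl3, described with the ERAD genes, had a ratio of 5.58. The other 40 genes had ratios from 0.39 to 1.58, but all of them have a level of their own in MS-5 cells alone, which holds such a ratio near 1. After the mean of MS-5 only was subtracted from each co-culture library, the ratio was 4.41 for Vldlr and 6.03 for Derl3, and 0.649 for Ddit4 and 0.768 for Ero1l. It was also high for Herpud1 (24.6) and Chac1 (5.69), in which the mean of MC1 and MC3 lay close to that of MS-5 only and the divisor was small, and was 2.25 for Pdia3 and 1.61 for Xbp1, so that a high value of this ratio was not limited to Vldlr and Derl3. How many of the Vldlr and Derl3 reads came from SKM-1 cells was not tested, since the index held mouse transcripts alone.

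**Figure D2:**
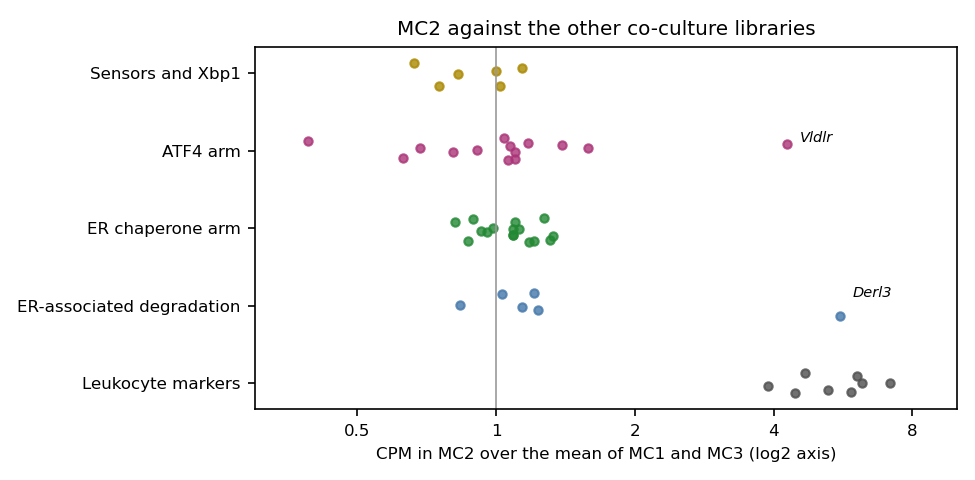
Level in MC2 divided by the mean level of MC1 and MC3 (x axis, log2-spaced) for each of the 42 genes by arm and for 8 leukocyte markers. Vldlr (4.28) and Derl3 (5.58) lie among the leukocyte markers (3.89 to 7.17), and the other 40 genes, which have a level of their own in MS-5 only, lie between 0.39 and 1.58.

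The ER chaperone arm, with the chaperones, disulphide isomerases and their helpers, holds 16 genes. In the fit without the covariate, 1 was called higher (6.25%, beside 3.71% of all genes), 0 lower (beside 0.666%) and 15 were not called. The median log2 fold change was -0.02, with 7 positive and 9 negative values. Levels differed widely within the arm. In mean TPM in MS-5 only, the order of the 42 genes began with Calr at 696 ± 40.9, Hsp90b1 at 429 ± 193, Hspa5 at 383 ± 147 and Canx at 299 ± 38.0 (SD, n = 3), of which the last 3 did not differ beyond their spread. Retained-intron models took 30.8%, 33.2% and 32.2% of the Calr TPM in MO1, MO2 and MO3. In MO2 Calr and Hsp90b1 were level, at 652 and 651 TPM. Dnajb9 and Ero1lb of the same arm were at 6.06 and 2.59 TPM.

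Hspa5, which encodes BiP and is the usual marker of the unfolded protein response, was at 561, 647 and 579 CPM in the MO libraries and at 551, 624 and 596 CPM in the MC libraries. The ranges overlapped almost fully, and the log2 fold change was -0.01 (SE 0.17, adjusted p = 0.993). Hsp90b1, the ER chaperone GRP94, was at 823, 1025 and 763 CPM in the MO libraries and 964, 802 and 1006 CPM in the MC libraries. It did not separate the groups either (log2 fold change 0.09, SE 0.21, adjusted p = 0.948). The lectin chaperone calreticulin, Calr, was at 1107, 623 and 1082 CPM in the MO libraries and 946, 868 and 529 CPM in the MC libraries. MO2 and MC3 held the lowest values of their groups, and the log2 fold change of -0.26 (SE 0.33, adjusted p = 0.844) was smaller than the difference of -0.81 and -0.78 between those libraries and the rest of their groups.

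Ero1l was the one chaperone-arm gene past the threshold in the fit without the covariate. It encodes the oxidase that recharges disulphide isomerases, also called ERO1A, and lies at chr14:45283087-45318771 on the - strand. Levels were 185, 208 and 209 CPM in MO1, MO2 and MO3 and 408, 331 and 334 CPM in MC1, MC2 and MC3. The lowest co-culture library was well above the highest of MS-5 only, and the level was 1.78-fold higher (log2 fold change 0.83, SE 0.16, adjusted p = 0.0742). MC3 was 0.68 above MO2 on the log2 scale, and MC1 and MC2 were 0.91 above MO1 and MO3 on average. MC2 and MC3 were almost equal, and MC2 was 0.893 times the mean of MC1 and MC3. Without MC2 the log2 fold change was 0.88 with an adjusted p of 0.168, and the call held only when MC3 was left out (adjusted p = 0.0796) among the 6 fits that leave out a library. The paralogue Ero1lb was low, at 7.13 ± 1.82 and 8.45 ± 1.48 CPM (SD, n = 3), and was not called (log2 fold change 0.24, SE 0.25, adjusted p = 0.783). The isomerases it serves were not called, and Pdia3, Pdia4 and Pdia6 had log2 fold changes of 0.16, -0.04 and 0.04 (SE 0.21, 0.18 and 0.21).

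Of the ER DnaJ proteins, Dnajb9, a co-chaperone of BiP and an XBP1 target, was at 9.38, 9.71 and 12.8 CPM in the MO libraries and 14.6, 15.5 and 13.1 CPM in the MC libraries. The groups did not overlap, though MC3 was barely above MO3, and the log2 fold change of 0.44 (SE 0.18, unadjusted p = 0.0486) had an adjusted p of 0.346. Dnajc3, the PERK inhibitor p58IPK, was at 85.7, 96.2 and 92.9 CPM in the MO libraries and 78.3, 77.9 and 84.7 CPM in the MC libraries. It lay lower in all co-culture libraries, by a log2 fold change of -0.19 (SE 0.12, adjusted p = 0.555). Hyou1, a BiP exchange factor, was at 91.2, 77.7 and 77.1 CPM in the MO libraries and 75.4, 65.3 and 57.5 CPM in the MC libraries. It too did not overlap and did not pass (log2 fold change -0.31, SE 0.15, adjusted p = 0.428). Of the rest, Canx, Dnajb11, Sdf2l1, Creld2 and Manf had log2 fold changes from -0.28 to 0.02 and overlapping groups.

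**Figure D3:**
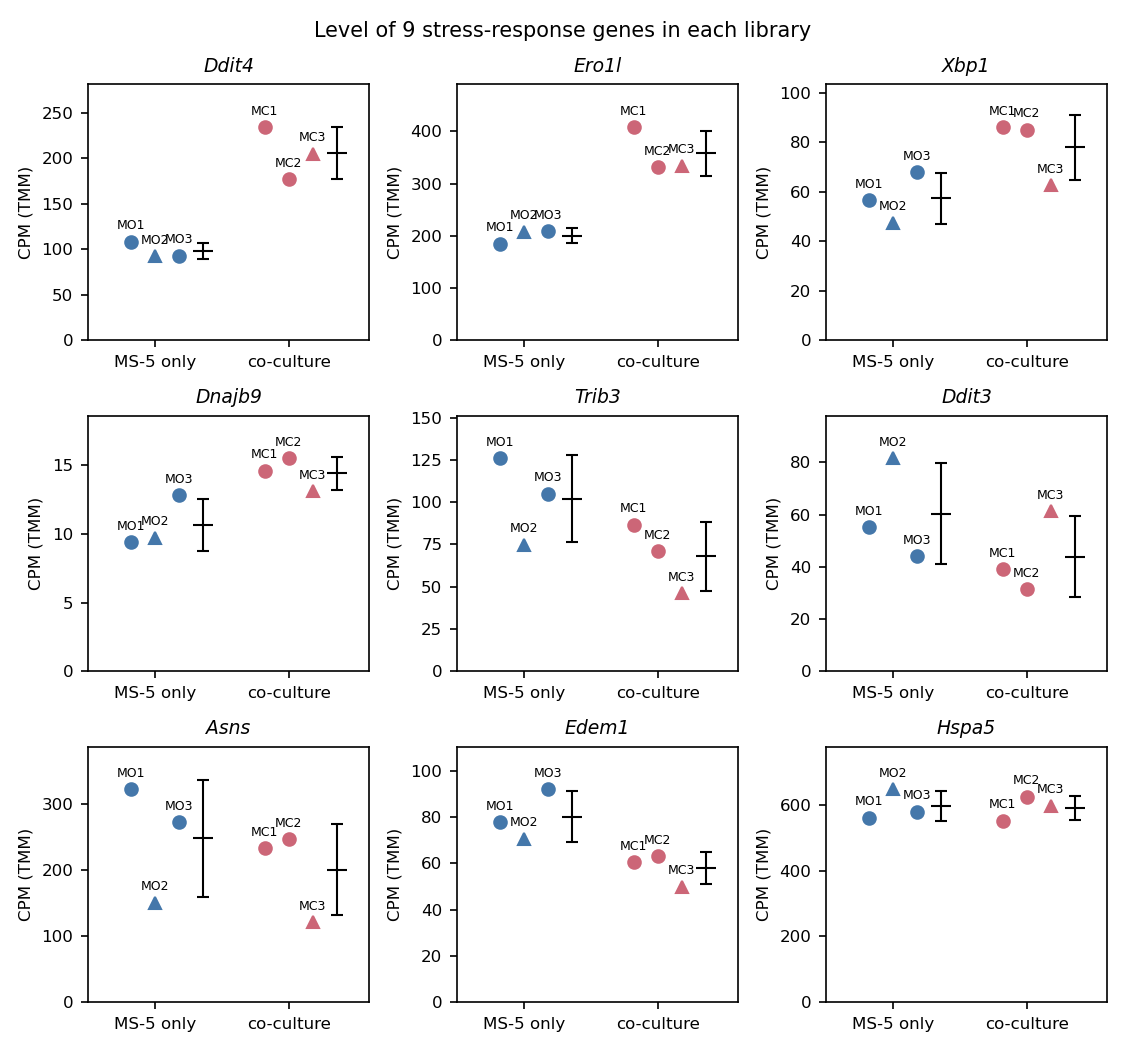
Level of 9 genes in each library (y axis, TMM-normalised CPM from 0), with MS-5 only in blue and co-culture in red, and the mean ± SD of each group in black. Triangles are MO2 and MC3. Ddit4 and Ero1l separate the groups widely, Dnajb9 and Edem1 narrowly, and Hspa5 (551 to 647 CPM) does not.

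Of the 6 ERAD genes 5 were tested, and none was called in the fit without the covariate (3.71% of all genes were called higher and 0.666% lower). Edem1, a mannosidase-like protein that hands misfolded glycoproteins to degradation and is a classical XBP1 target, was at 77.7, 70.6 and 92.1 CPM in the MO libraries and at 60.6, 63.1 and 50.0 CPM in the MC libraries. It was lower in every co-culture library, by -0.47 on the log2 scale (SE 0.16, unadjusted p = 0.0233), with an adjusted p of 0.236. Sel1l, the scaffold of the ERAD ubiquitin ligase, was at 78.5, 85.4 and 82.8 CPM in the MO libraries and 72.0, 72.4 and 68.6 CPM in the MC libraries. The groups were apart with little spread, but the difference was small and did not pass (log2 fold change -0.21, SE 0.11, adjusted p = 0.469). Herpud1, an early target of both ATF6 and ATF4, was at 73.6, 64.0 and 76.5 CPM in the MO libraries and 84.9, 87.0 and 59.1 CPM in the MC libraries. MC1 and MC2 were above all MS-5 only libraries and MC3 below them (log2 fold change 0.11, SE 0.18, adjusted p = 0.900).

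The ligase Syvn1 and the channel component Derl1 had log2 fold changes of 0.19 (SE 0.16, adjusted p = 0.688) and -0.17 (SE 0.30, adjusted p = 0.911). Derl3, an inducible homologue of Derl1 at chr10:75893413-75895941, did not pass the filter. Its counts were 0, 3 and 0 in the MO libraries and 11, 48 and 13 in the MC libraries, a ratio of 20.7 at equal depth with an exact 95% interval of 6.82 to 103 for counting error. Most of these reads were in MC2, as for Vldlr, and retained-intron models took 83.4%, 100% and 77.6% of its TPM in MC1, MC2 and MC3. In a fit without the filter its log2 fold change of 4.48 (SE 1.26) had an adjusted p of 0.147.

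Of the 2 genes named here as targets of XBP1, Dnajb9 lay higher in co-culture (log2 fold change 0.44) and Edem1 lower (-0.47), neither of them past the adjusted threshold in the fit without a covariate.

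The 2 arms were set side by side in each library. Relative to the mean of MS-5 only, the median log2 level of the 14 genes of the ATF4 arm was 0.14, -0.10 and -0.01 in MO1, MO2 and MO3 and -0.08, -0.07 and -0.06 in MC1, MC2 and MC3. That of the 16 genes of the chaperone arm was 0.03, -0.16 and 0.08 in the MO libraries and 0.04, 0.06 and -0.30 in the MC libraries. In both arms the groups overlapped, and the lowest chaperone value of each group was in MO2 and in MC3. The median of the group of the 4 sensors, Xbp1 and Ppp1r15b was highest in those libraries, at 0.23 and 0.31. All 4 sensors were higher in MO2 and MC3 than in the rest of their groups, but Xbp1 was lower there, by -0.39 and -0.45 on the log2 scale, as was Ppp1r15b, by -0.06 and -0.10.

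**Figure D4:**
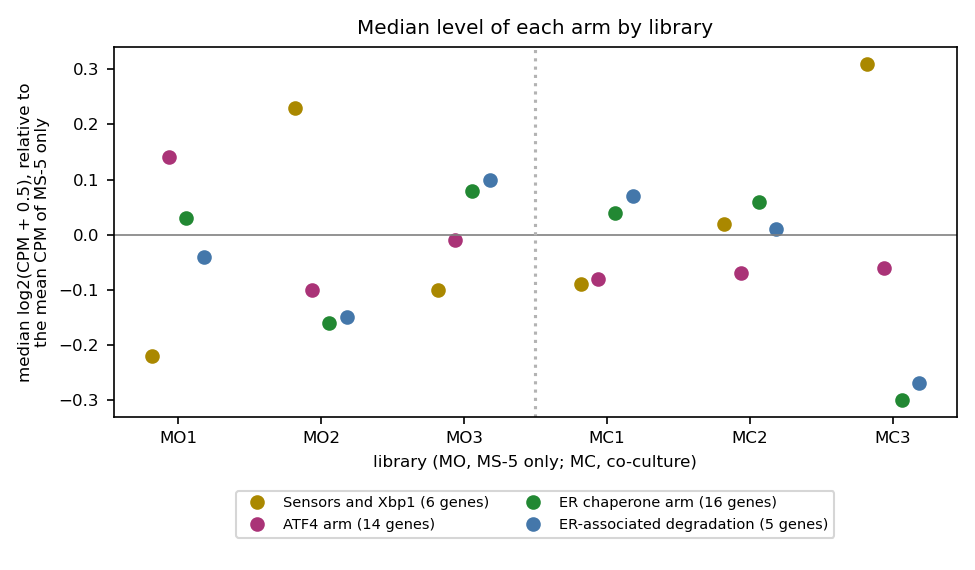
Median level of each arm in each library (y axis, log2(CPM + 0.5) relative to the mean of MS-5 only, and x axis, the 6 libraries). The chaperone and ERAD medians are lowest in MO2 and MC3 (chaperones -0.16 and -0.30), the group of the sensors, Xbp1 and Ppp1r15b is highest there (0.23 and 0.31), and the ATF4 arm lies between -0.10 and 0.14.

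The 2 libraries that stood apart, one in each group, deviated alike from their groups. Of the 40 genes above 0 in all libraries, MO2 and MC3 lay on the same side of their groups in 38 (95%), beside 87.6% of the 12836 such genes among all tested, and this deviation was larger than the difference between the groups in 30 genes (75.0%, beside 67% of all). The groups were therefore also compared within each kind of library, MC3 with MO2 and the mean of MC1 and MC2 with that of MO1 and MO3. The sign was the same in both for 32 of the 40 genes (80.0%, beside 77.9% of all).

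A covariate for MO2 and MC3 in edgeR was taken as an alternative because these libraries stood apart in these same data, and no label gives a batch. The median log2 fold change of the 41 genes was still -0.01. The standard error was smaller for 40 of them, which largely follows from choosing the covariate by this deviation and adds no support. Over all genes the calls rose from 579 to 3999. With the covariate, 7 of the 41 were called higher, 17.1% beside 13.9% of all genes, and 14 lower, 34.1% beside 16.4% of all. The higher genes were Ddit4, Ero1l, Vldlr, Xbp1, Dnajb9, Eif2ak4 and Ppp1r15a. Among the lower genes were 5 of the 14 of the ATF4 arm, Trib3 (log2 fold change -0.60, adjusted p = 0.0193), Slc3a2 (-0.37, 0.0287), Ddit3 (-0.47, 0.0419), Asns (-0.31, 0.0481) and Slc7a5 (-0.42, 0.0609). The others were Edem1 (-0.47, adjusted p = 0.0178) and Sel1l of ERAD, Calr, Hyou1, Dnajb11, Dnajc3, Creld2 and Manf of the chaperone arm, and Ppp1r15b. Atf4 and Hspa5 remained at -0.02 and -0.01 (adjusted p = 0.916 and 0.950). These fits leave few degrees of freedom, and without MC2 as well the counts were 5 higher and 8 lower (10.9% and 11.1% of all genes).

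**Figure D5:**
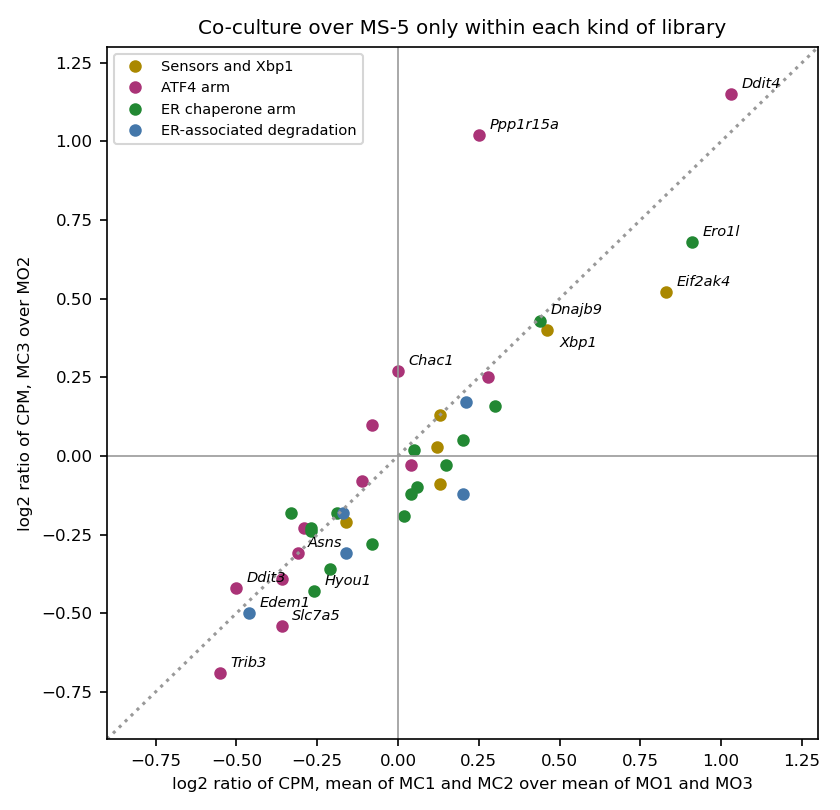
Log2 ratio of co-culture to MS-5 only within each kind of library, for 40 genes (Vldlr, which has a library at 0, and Derl3, which was not tested, are left out). The x axis compares the mean of MC1 and MC2 with that of MO1 and MO3, the y axis MC3 with MO2, and the dotted line marks equal values. Ddit4 (1.03 and 1.15) and Ero1l (0.91 and 0.68) lie upper right, and Trib3 (-0.55 and -0.69) lower left.

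Other genes of the same pathways were listed to see whether they moved with these. Of 32 further genes of the ATF4 pathway, the other eIF2 kinases Eif2ak1 and Eif2ak2 among them, 30 were tested and none was called in the fit without the covariate, with 7 log2 fold changes positive and 23 negative and a median of -0.15, beside -0.02 over all genes. At an unadjusted p under 0.05, 2 were lower and 1 higher (5.63% and 8.62% of all genes were), and DESeq2 called 1 higher (6.88% of all genes). The cationic amino acid transporter Slc7a1 was at 146, 89.3 and 114 CPM in the MO libraries and 77.7, 82.4 and 53.2 CPM in the MC libraries (log2 fold change -0.71, SE 0.25, adjusted p = 0.241). Cth, the cysteine-producing enzyme cystathionine gamma-lyase, was at 22.0, 15.7 and 19.8 CPM and then at 13.9, 13.9 and 8.06 CPM (log2 fold change -0.68, SE 0.26, adjusted p = 0.295). Both lay lower in all co-culture libraries. Cbs, the enzyme one step before Cth, was at 0.0399, 0.637 and 0.272 CPM in the MO libraries and 1.16, 2.74 and 1.34 CPM in the MC libraries, few reads with the highest value in MC2 (log2 fold change 2.41, SE 0.84, adjusted p = 0.245). With the covariate, 2 of the 30 were called higher and 9 lower (30%, beside 16.4% of all genes).

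Of 40 further genes of the unfolded protein response, from ER folding, translocation and degradation to its other transcription factors and the apoptosis genes tied to it, 39 were tested. None was called by edgeR without the covariate (3.71% of all genes higher and 0.666% lower) or by DESeq2 (6.88% and 2.71%). At an unadjusted p under 0.05, 0 passed in edgeR, where 8.62% of all genes were higher and 5.63% lower. In DESeq2 1 passed, where 1287 of 13221 genes were higher and 839 lower. The log2 fold changes of the 39 ran from -0.53 to 0.37 with a median of -0.02, and 38 of them lay within 0.5 of 0. With the covariate, 2 were called higher and 7 lower (5.13% and 17.9%, beside 13.9% and 16.4% of all genes).

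Promoter windows of the genes were read from RefSeq (GRCm38.p6, 250 bases before to 50 after each start) to show which known elements lie beside the genes that rose and those that did not. Windows were held for 36 of the 42 genes, 39 windows in all, and 5 motifs were searched on both strands. The ER stress element (ERSE, CCAAT and CCACG with 9 bases of any kind between them), the site of ATF6 with NF-Y, was in 0.119% of all 32851 windows and in those of 8 of 14 chaperone-arm genes, 2 of 5 ERAD genes and 0 of 13 genes of the ATF4 arm. The related ERSE-II (ATTGG and CCACG with 1 base between them) was in 0.0365% of all windows and in those of Herpud1 and Dnajb11. The 9 tested genes with an ERSE had log2 fold changes from -0.28 to 0.24 with a median of 0.02, and none was called in the fit without the covariate, while Calr, Creld2 and Dnajc3 were called lower with it. The elements of Hspa5, Calr and Herpud1 are shown on the strand of the gene, with the match in capitals, because BiP, calreticulin and Herpud1 are well-known targets of these elements.
Hspa5 ERSE (chr2:34772020-34772048, + strand): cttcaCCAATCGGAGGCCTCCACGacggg
Calr ERSE, reverse orientation (chr8:84847070-84847098, - strand): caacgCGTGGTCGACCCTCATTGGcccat
Herpud1 ERSE-II (chr8:94386368-94386396, + strand): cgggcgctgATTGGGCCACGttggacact

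A C/EBP-ATF response element (CARE, TGATGNAAN), the kind of site ATF4 binds, was in 3.95% of all windows and in those of 5 of the 13 genes of the ATF4 arm, Asns, Atf3, Chac1, Trib3 and Vldlr, and of Herpud1. Of these 6 genes Vldlr alone was called in the fit without the covariate, and with it Trib3 and Asns were also called, both lower. Its match is shown with those of Chac1 and Atf3, all in the reverse orientation, because the 3 sites share the letters TTGCATCA and Chac1 and Atf3 were not called in either fit. Herpud1, also not called, holds the same 9 letters as Vldlr and Chac1.
Vldlr CARE (chr19:27216809-27216837, + strand): agcagcaataGTTGCATCAgcgctcctag
Chac1 CARE (chr2:119351038-119351066, + strand): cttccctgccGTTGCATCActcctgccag
Atf3 CARE (chr1:191183426-191183454, - strand): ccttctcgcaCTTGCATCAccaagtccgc

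The core of the hypoxia response element (ACGTG) is short and was in 19.6% of all windows and 33.3% of those of the 42 genes. It can overlap an ERSE whose last bases are followed by T. Besides Ddit4 and Ero1l, it was in the windows of Asns, Ddit3, Ppp1r15a and Slc3a2 of the ATF4 arm, Calr, Dnajb9, Dnajc3, Hspa5 and Pdia6 of the chaperone arm, and Derl3 and Herpud1, none of them called in the fit without the covariate. With it, Dnajb9 and Ppp1r15a were called higher and Asns, Ddit3, Slc3a2, Calr and Dnajc3 lower. Ddit4 and Ero1l had 1 match each and no ERSE or CARE, and both matches are shown, as these are the 2 genes that rose from a substantial level. The CCAAT box alone was in 37.4% of all windows and 71.8% of those of these genes, and is part of each ERSE. A match describes the letters in a window and does not show that a factor was bound there.
Ddit4 (chr10:59951941-59951969, - strand): agaacgttgcgaACGTGcgcccggtgcct
Ero1l, reverse orientation (chr14:45318619-45318647, - strand): cgcgcgccgctgCACGTccgcaggggagg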

How the data were processed

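The authors quantified reads with kallisto 0.43.0 against mouse transcripts and deposited estimated counts and TPM values per transcript for each library, unpooled and unfiltered. Of 118489 transcripts, 116728 matched GENCODE M21 (GRCm38), and 1761 (0.476% to 0.562% of counts) were left out. For each gene the estimated counts of its transcripts were added up and rounded, filtered with filterByExpr and TMM-normalised. In R 4.3.3, edgeR 4.0.16 gave the quasi-likelihood test, Benjamini-Hochberg adjusted over 13221 genes at a threshold of 0.1. The study's Sleuth was not used here. DESeq2 1.42.0 and limma 3.58.1 on log2(TPM + 0.5) were alternatives, as were pseudocounts of 0.1 and 1, no filter, at least 5 counts in 3 libraries, DESeq2 size factors, an effective length offset, leaving out each library, a covariate for MO2 and MC3, a replicate block and a threshold of 0.05. Chosen after seeing the data were protein-coding transcript models alone and the covariate without MC2. The covariate itself rests on how MO2 and MC3 stood apart in these data. On simulated counts for this comparison over 13221 genes, edgeR recovered 78% of 200 genes given a log2 difference of 2. SE is the fitted log2 difference over the root of F.

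The genes, arms and other lists were chosen with earlier results of these data known. Values in every library are given for genes of the 42 with an adjusted p under 0.1, an unadjusted p under 0.05 or groups that do not overlap, and for a fixed core (Atf4, Ddit3, Trib3, Asns, Chac1, Eif2ak3, Ern1, Atf6, Xbp1, Hspa5, Hsp90b1, Calr, Ero1l and Herpud1). Of the other pathway genes, those past the threshold and the 2 with the largest change in each direction at an unadjusted p under 0.05 are named.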

Additional observations from a re-analysis of the deposited data

How the results depend on the processing

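Of the 42 genes, 3 were called higher and 0 lower. The number called higher was 0 with limma on log2(TPM + 0.5), log2(TPM + 0.1) or log2(TPM + 1), 0 at a threshold of 0.05 and 0 with protein-coding transcript models only. At an unadjusted p under 0.05, 4 were higher in each of these fits. Lower were 2, 2 and 3 with limma at the pseudocounts 0.5, 0.1 and 1, 1 with protein-coding models and 1 in the main fit. Of all 13221 genes, limma then had 817, 828 and 814 higher and 444, 435 and 451 lower. With protein-coding models, 814 of 11994 were higher and 714 lower. Of all 13221 genes, limma called 339, 482 and 212 higher at the pseudocounts 0.5, 0.1 and 1. Of all genes, 3 of 11994 were called with protein-coding models and 2 at the threshold of 0.05, against 579 of 13221. Leaving out one library gave from 0 to 3, with 0 genes called among all genes tested when MO1, MO2 or MO3 was left out, 1 without MC1 (Vldlr) and 1 without MC2 (Ddit4). The covariate for MO2 and MC3 gave 7 higher and 14 lower (13.9% and 16.4% of all genes), and 5 higher and 8 lower without MC2 as well (10.9% and 11.1%), an alternative chosen after seeing the data. The medians of the ATF4 arm and of the ER chaperone arm moved by less than their spread between libraries under every alternative run. Of 396 refitted log2 fold changes of 22 named genes, 16 changed sign, in 6 genes whose values were near 0. Ern1 was at 0.00 with limma on log2(TPM + 0.5) and log2(TPM + 1) and at -0.02 with the effective length offset, Atf4 at 0.00 with that offset, and Hspa5 at 0.00 with protein-coding models. With one library left out, Eif2ak3 ran from -0.06 to 0.26, Ern1 from -0.33 to 0.48, Atf4 from -0.12 to 0.09, Chac1 from -0.10 to 0.20, Hspa5 from -0.06 to 0.05 and Hsp90b1 from 0.00 to 0.22. Some genes that kept their sign also moved widely, with Ddit3 from -0.78 to -0.18, Asns from -0.58 to -0.05 and Calr from -0.49 to -0.05.

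The deviations of same-numbered libraries from their group means correlated at 0.53, -0.29 and -0.52, and MO2 correlated with MC3 at 0.73. Such deviations sum to 0 within a group, so the libraries that stood apart shape the other correlations. Whether the replicate numbers pair the libraries therefore cannot be read from these values. With the replicate block, 2 genes were called higher (Ddit4 and Vldlr) and 0 lower, and 444 of all genes. The share of spliced Xbp1, its alternatives included, was not computed, because no deposited transcript holds the spliced junction. Depth limits Vldlr and Derl3, with 4 and 3 counts in MS-5 only.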
